A study of Mus musculus with 24 samples.

Results

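The mitochondrial ribosomal protein genes were described in the hippocampus of C57Bl/6 mice as the genes whose name on the array begins with Mrpl (large subunit) or Mrps (small subunit). In the later of the 2 annotations carried by the scanner files, 124 probes of 75 genes bore such a name, 46 of them Mrpl and 29 Mrps genes. Of these probes 123 were well above background on at least 4 arrays and were kept, and all 75 genes entered the test, among 26178 genes in all. The most intense probe of each gene stood for it, and this probe was well above background on all 24 arrays and saturated on none for each of the 75.

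Hippocampal RNA of 24 mice was hybridised to 24 Agilent 1-colour arrays, 1 mouse per array, in 6 groups of 4. Young control and old control mice, aged 3 and 16 months, were handled without training. Young fear and old fear mice of the same ages were taken 1 h after contextual fear conditioning, which was 3 min in a new chamber followed by a foot shock of 0.7 mA for 2 s. Young context and young shock-context mice, aged 3 months, were taken after the chamber without a shock, or after a shock given at once on entry and followed by exploration. P-values measure the spread between these mice. All groups share the strain and carry no transgene in the labels, and in bulk tissue fewer cells of a type and less RNA per cell cannot be told apart.

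Mitochondrial ribosomes translate the few respiratory chain subunits that are encoded in mitochondrial DNA, and all of their proteins are encoded in the nucleus, made in the cytosol and imported. Some of these proteins descend from the bacterial ribosome and others were added in mitochondria. The family is known in brain from inherited defects of oxidative phosphorylation that follow its loss. Mrps30 and Mrps18a, despite their names, sit in the large subunit, and Mrps36 has been reassigned to the oxoglutarate dehydrogenase complex.

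Promoters of these genes were searched for letters bound by factors known to drive nuclear genes of mitochondrial proteins. RefSeq promoters (GRCm38.p6, 250 bases before to 50 after the start) were found for 66 of the 75 genes, and no entry was matched for Mrpl4, Mrpl13, Mrpl15, Mrpl19, Mrpl38, Mrpl54, Mrps28, Mrps34 or Mrps35. The ETS and GABP letters CCGGAAG, on either strand, stood in 24 of the 66 (36.4%) and in 9.93% of all 27025 genes with a promoter in the table. The NRF1 core GCATGCGC stood in 8 of them (12.1%, against 3.05%), and the YY1 letters AAGATGG in 12 (18.2%, against 7.28%). The SP1 letters GGGCGG stood in 48.5% against 38.2%, the E-box CACGTG in 7.58% against 8.09%, and the TATA box TATAAA in 7.58% against 15.7%. Of the 41 matched genes that were lower in young fear, 17 held the ETS letters, 5 the NRF1 core and 5 the YY1 letters, and of the other 25 the numbers were 7, 3 and 7. These are matches of letters in a window, and no binding was measured.

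The stretches below are shown because their genes carry the results that follow. They are the bases before the start that surround an ETS or NRF1 match, with the match in capitals, written 5′ to 3′ along the gene's strand.
Mrps18c, chr5:100798583-100798629, + strand: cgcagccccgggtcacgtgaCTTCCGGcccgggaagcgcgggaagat
Mrps22, chr9:98601680-98601710, - strand: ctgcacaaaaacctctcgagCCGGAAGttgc
Mrpl3, chr9:105053229-105053267, + strand: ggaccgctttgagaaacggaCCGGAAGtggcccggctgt
Mrps16, chr14:20393538-20393584, - strand: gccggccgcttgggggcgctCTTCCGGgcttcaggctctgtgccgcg
Mrps18a, chr17:46110958-46111003, + strand: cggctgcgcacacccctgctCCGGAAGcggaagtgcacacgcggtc
Mrps18b, chr17:35916636-35916683, - strand: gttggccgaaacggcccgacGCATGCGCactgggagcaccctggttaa
Mrpl9, chr3:94443290-94443335, + strand: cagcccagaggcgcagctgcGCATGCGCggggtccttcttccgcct
Mrpl10, chr11:97041428-97041475, + strand: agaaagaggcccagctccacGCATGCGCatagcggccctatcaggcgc
The ETS letters began 11 bases before the start of Mrps22 and 19 before that of Mrpl3, on the strand of the gene. They began 74 bases before the start of Mrps16 and 156 before that of Mrps18c, on the other strand. In Mrps18a, which did not pass the test in young fear, they began 26 bases before the start. The NRF1 core began 26 and 134 bases before the starts of Mrpl9 and Mrpl10, which rose, and 223 bases before that of Mrps18b, which fell, so the genes shown do not sort by motif.

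Scanning was done in 2 runs, one for the 16 control and fear arrays and a later one for the 8 context and shock-context arrays. An array's 75th percentile of processed signal was 757 to 2137 in the earlier run and 3101 to 8369 in the later. Each of 4 slides held 1 array of every control and fear group, and 2 further slides held the context and shock-context arrays. Old control array 2 stood apart within its centre, where 7.24% of its spots lay in blocks of 20 rows by 9 columns whose median lay under -0.6 (log2) relative to the other arrays of its group. The spots of Mrpl4, Mrpl11, Mrpl15, Mrpl27, Mrpl30, Mrpl40, Mrps14 and Mrps17 lay there, with a median deviation of -3.61 on the log2 scale. Young control array 3 had a smaller dim area with 5 of these genes in it, and old fear array 2 one with Mrps14 and Mrps17. Counts are therefore given with all spots and with the spots of dim areas set to missing, a choice made after the data were seen. Markers of 2 other tissues moved with the groups. All 8 choroid plexus markers fell in young fear, with a median change of -4.28, and their log2 summed signal was 11.79 to 13.17 there against 15.98 to 16.72 in young control. All 8 thalamus markers rose in young fear, with a sum of 15.24 to 15.57 against 14.30 to 14.60, and 6 of 8 rose in old fear, with a sum of 15.11 to 15.57 against 14.25 to 14.59. No marker of either list was at background in any group. The part of these tissues in the results on the ribosomal protein genes was not tested.

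The first comparison asked what conditioning did to the genes of this family in young mice. Most were lower in young fear than in young control: 46 of 75 fell and 5 rose (limma, adjusted p under 0.05 over all genes), where 22.7% of all genes fell and 17.8% rose. The median log2 change was -0.46 over the family and -0.15 over all genes. With dim areas set to missing, 49 fell and 7 rose. On all 4 young fear arrays 44 genes lay below every young control array, and 6 lay above. Over all genes the shares were 21% and 16.7%.

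The median of the family on each array, after each gene's own mean over 24 arrays was subtracted, was -0.28 to -0.26 in young fear. It was 0.08 to 0.19 in young control, 0.12 to 0.21 in old control and 0.10 to 0.14 in old fear. The 4 young fear arrays lay below every other array, including those of young context (-0.09 to -0.03) and young shock-context (-0.15 to -0.004). Within the 4 slides the median difference of young fear from young control was -0.47, -0.47, -0.42 and -0.36, and the same over all genes was -0.11, -0.11, -0.14 and -0.10.

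**Figure D1:**
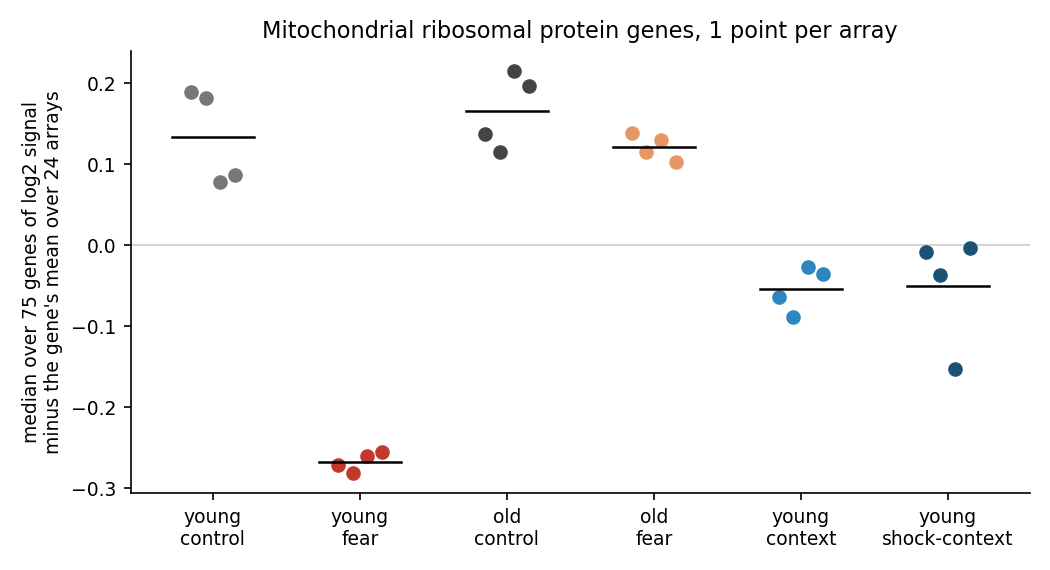
Median over the 75 genes of log2 signal minus each gene's mean over 24 arrays, 1 point per array and 6 groups of 4, with a line at the group mean. The young fear arrays lie between -0.28 and -0.26, below all other arrays. The young context and young shock-context arrays were scanned in a later run than the rest.

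Among large subunit proteins with a bacterial counterpart, 20 of 30 fell and 2 rose. Mrpl55 measured 14.36, 14.55, 14.56 and 14.33 (log2 signal) on the young control arrays and 13.50, 13.48, 13.27 and 13.41 on the young fear arrays. The groups did not overlap, and the log2 change was -1.03 (SE 0.09, adjusted p = 1.81e-08). Mrpl23, whose protein lines the exit of the tunnel for the new chain, measured 15, 14.99, 15.07 and 14.68 in young control and 14.01, 14.05, 14.02 and 13.79 in young fear. Every fear array was again below every control array, by 0.97 on average (SE 0.10, adjusted p = 3.28e-07). Mrpl16 fell by 0.92, Mrpl21 by 0.92 and Mrpl14 by 0.87. The young fear arrays of Mrpl21 fell into 2 levels, 10.96 and 11.06 on arrays 1 and 2 and 11.69 and 11.71 on arrays 3 and 4, all below the controls at 12.19 to 12.42.

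Mrpl3, whose protein reaches towards the peptidyl transferase centre and whose gene is mutated in inherited cardiomyopathy, measured 14.33, 14.24, 14.11 and 14.22 in young control and 13.80, 13.80, 13.50 and 13.44 in young fear on its most intense probe. That is a fall of 0.59 (SE 0.09, adjusted p = 1.57e-05) without overlap, though its other probes differed, as given further on. Mrpl12, a protein of the stalk that recruits translation factors, did not pass the test at -0.16 (SE 0.09, adjusted p = 0.165). With all arrays scaled to their 75th percentile instead, its adjusted p was 0.000687. Mrpl11, at the base of the stalk, was at -0.06 with all spots (adjusted p = 0.934). With dim areas missing its young control arrays read 14.57, 14.46 and 14.50 and its young fear arrays 14.30, 14.19, 14.17 and 14.14, a fall of 0.31 (SE 0.10, adjusted p = 0.0214).

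Of the 18 large subunit proteins specific to mitochondria, 11 fell and 1 rose. Mrpl46 measured 11.9, 12, 12.06 and 11.75 in young control and 10.73, 10.74, 11.01 and 11.09 in young fear. All fear values were lower, by 1.03 on average (SE 0.10, adjusted p = 4.95e-08). Mrps30 fell by 0.38 (SE 0.08, adjusted p = 0.000606), from 12.06 to 12.33 in young control to 11.79 to 11.92 in young fear.

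In the small subunit, 6 of 16 proteins with a bacterial counterpart fell and 2 rose. Mrps28 had the greatest fall among the most intense probes of the 75 genes. It measured 13.56, 13.79, 13.63 and 13.54 in young control and 12.51, 12.52, 12.31 and 12.57 in young fear, a change of -1.15 (SE 0.10, adjusted p = 3.76e-08). Less intense probes of Mrps17 (-1.99, adjusted p = 1.15e-06) and Mrpl27 (-1.79, adjusted p = 0.000398) fell further in the fit of every probe. That probe of Mrpl27 was well above background on only 19 of the 24 arrays. It read 4.66 to 5.23 in young control and 2.88 to 3.55 in young fear, so its change lies between low readings. Mrps16, a gene of inherited respiratory chain deficiency in humans, fell by 0.49 (SE 0.12, adjusted p = 0.0022), from 14.52 to 14.81 to 13.86 to 14.45, without overlap. That call was lost in the deposited values (adjusted p = 0.314) and with normexp background correction (adjusted p = 0.263). Mrps12, a protein of the decoding centre, was at 14.03 to 14.09 in young control and 14.08 to 14.29 in young fear, and did not pass the test (0.16, SE 0.07, adjusted p = 0.0981).

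Of the 10 small subunit proteins specific to mitochondria, 8 fell and 0 rose. Mrps22, whose loss in humans also gives respiratory chain deficiency, measured 12.51, 12.41, 11.90 and 12.24 in young control and 11.66, 11.50, 11.47 and 11.48 in young fear. It fell by 0.74 (SE 0.11, adjusted p = 1.62e-05) with no overlap. Mrps33 fell by 0.82 (SE 0.11, adjusted p = 3.23e-06), from 15.57 to 15.88 to 14.85 to 14.97.

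The family holds 3 genes related to one bacterial protein, S18, and their readings differed in young fear. Mrps18c fell by 0.96 (SE 0.11, adjusted p = 6.07e-07), from 13.01, 13.17, 12.79 and 13.19 to 12.12, 12.29, 11.99 and 11.93. Mrps18b fell by 0.67 (SE 0.15, adjusted p = 0.000787), from 8.72 to 9.17 to 8.06 to 8.60. Mrps18a was at 0.30 (SE 0.14, adjusted p = 0.0785), with overlapping groups at 13.08 to 13.40 and 13.26 to 13.86. Without young fear array 1 it passed (adjusted p = 0.0244). Differences between these 3 genes were not tested. Mrps36, outside the ribosome, fell by 0.42 (SE 0.12, adjusted p = 0.00661), with a call that was lost in the deposited values (adjusted p = 0.0695). The other probe of Mrps36 did not pass the test (-0.07, adjusted p = 0.63).

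The genes that rose with all spots were Mrpl9, Mrps2, Mrpl38, Mrpl10 and Mrps7. Mrpl9 measured 10.26, 10.40, 10.14 and 10.36 in young control and 10.94, 10.87, 10.94 and 11.11 in young fear. Every fear array was higher, by 0.67 (SE 0.09, adjusted p = 6.56e-06). Mrps2 measured 11.13, 10.87, 10.70 and 10.73 against 11.36, 11.42, 11.34 and 11.27, a rise of 0.49 (SE 0.09, adjusted p = 0.000192). The rises of Mrpl38 (0.39), Mrpl10 (0.33) and Mrps7 (0.20) were smaller, and those of Mrpl10 (adjusted p = 0.028) and Mrps7 (adjusted p = 0.0381) were lost in the deposited values, at adjusted p = 0.159 and 0.259. With dim areas missing, Mrpl4 (0.60, SE 0.17, adjusted p = 0.00798) and Mrpl15 (0.70, SE 0.17, adjusted p = 0.00197) also rose on their most intense probe, and Mrpl11, Mrpl40 and Mrps14 fell. The other probe of Mrpl15 fell by 0.37 (adjusted p = 0.0112).

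**Figure D2:**
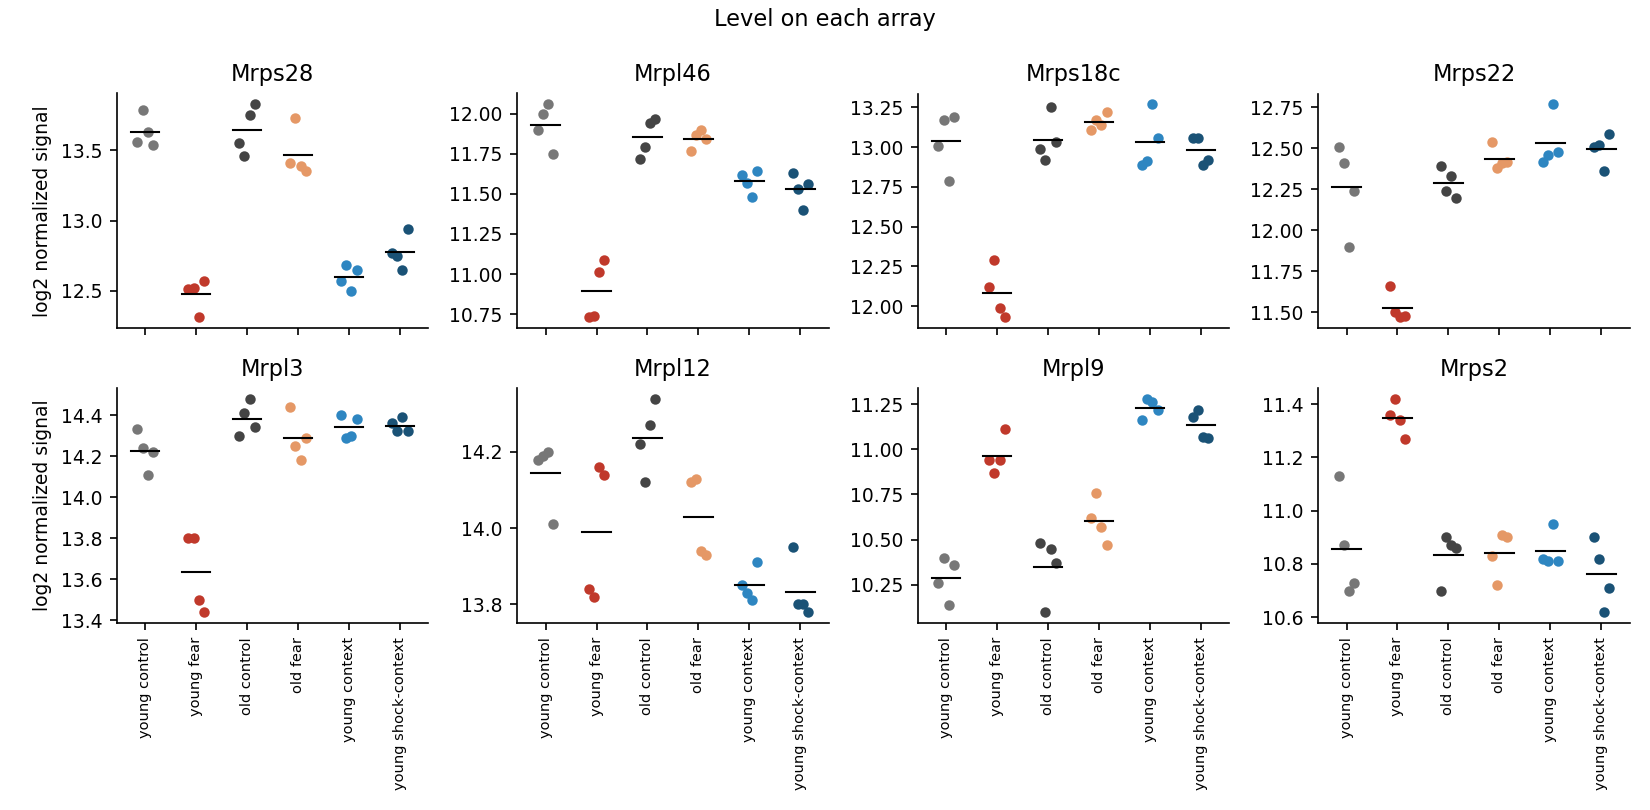
Log2 normalized signal of 8 genes on each of the 24 arrays, 4 per group, with a line at the group mean. Mrps18c, Mrps22 and Mrpl3 are low in young fear alone among the groups shown, Mrps28 is low in young fear, young context and young shock-context, and Mrpl9 is high in those 3 groups.

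Of the 75 genes, 33 had more than 1 kept probe, and probes of one gene did not always move together. Fitted probe by probe, 66 of 123 probes fell in young fear and 13 rose, where 20.6% of all probes fell and 22.5% rose. Among the 33 genes, 19 of the most intense probes fell and 3 rose, and of their 48 other probes 20 fell and 8 rose. Over all genes with more than 1 probe, 25.5% of the most intense probes fell and 23.1% rose. Of the other probes of all these genes, 15.6% fell and 32% rose. Falls were thus more frequent on the most intense probe over all genes too, so the choice of probe leans towards falls. Probes called in opposite directions were found in 6 of the 33 genes (18.2%), Mrpl3, Mrpl17, Mrpl41, Mrpl45, Mrps2 and Mrps5, against 12.9% of all genes with more than 1 probe. With dim areas set to missing, Mrpl15 joined them, which made 7 of 33 (21.2%, against 14% of all genes), and 69 of the 123 probes fell and 15 rose. In 8 genes, Mrpl18, Mrpl27, Mrpl28, Mrpl49, Mrps18b, Mrps18c, Mrps23 and Mrps33, all probes fell. The dimmer probe of Mrpl27 was well above background on only 19 arrays.

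The probes of Mrpl3, Mrpl45 and Mrps18c are shown because the first 2 genes disagree between probes and the last agrees. Each line gives the first 30 bases of a probe of 60, 5′ to 3′, in lower case throughout because no base is singled out, with positions in mm9 as annotated in the files.
Mrpl3, chr9:104979701-104979760, + strand: cgcctgtcatttataggtgtcattctttag
Mrpl3, chr9:104979522-104979581, + strand: agatcaggaatgggaatcgcattccctcgg
Mrpl3, chr9:104966444-104973754, + strand: acagccaaaactattggtaaaggttttcag
Mrpl3, chr9:104978228-104978287, + strand: gagaagtcactacttgcatcctatgtgaca
Mrpl45, chr11:97190353-97190412, + strand: ccacagctttcttttttctaattataggcc
Mrpl45, chr11:97185202-97185261, + strand: acaaaagacttccctgaaaaagctaaggat
Mrps18c, chr5:101233411-101233470, + strand: tcagataccgagaataaattttgtatttgt
Mrps18c, chr5:101232118-101233036, + strand: ggcacataacaggtctttgtggaaagaaac
In this order the Mrpl3 probes had mean log2 signals of 14.20, 13.21, 12.14 and 9.78 over the 24 arrays. Their changes in young fear were -0.59, 0.04 (adjusted p = 0.941), 0.38 (adjusted p = 0.00225) and 0.92 (adjusted p = 3.41e-06), so the most intense of the 4 was the one whose fall passed the test. The second has an SE of 0.39 and reads 12.48 on young control array 3 and 10.85 on old control array 2, below the 13.05 to 13.59 of the other control and fear arrays. Both arrays have dim areas, though its spot lies outside the blocks set to missing. The dimmest probe of Mrpl3 read 9.69, 9.42, 9.54 and 9.61 in young control and 10.57, 10.51, 10.61 and 10.26 in young fear.

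The probes of Mrpl45 changed by -0.70 and 1.21, and both of those changes passed the test. The second of them read 9.08, 8.93, 8.65 and 8.96 in young control and 9.75, 9.82, 10.50 and 10.41 in young fear. Mrps18c changed by -0.96 and -0.81 on its 2 probes, the second of which spans a gap in the genome. Mrpl17 and Mrpl41 also fell on the more intense probe, by 0.59 and 0.42, and rose on the dimmer, by 0.61 and 0.89. The rise of Mrps2 was likewise a reading of 1 probe: another of its probes fell by 0.49 (adjusted p = 0.0182).

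**Figure D3:**
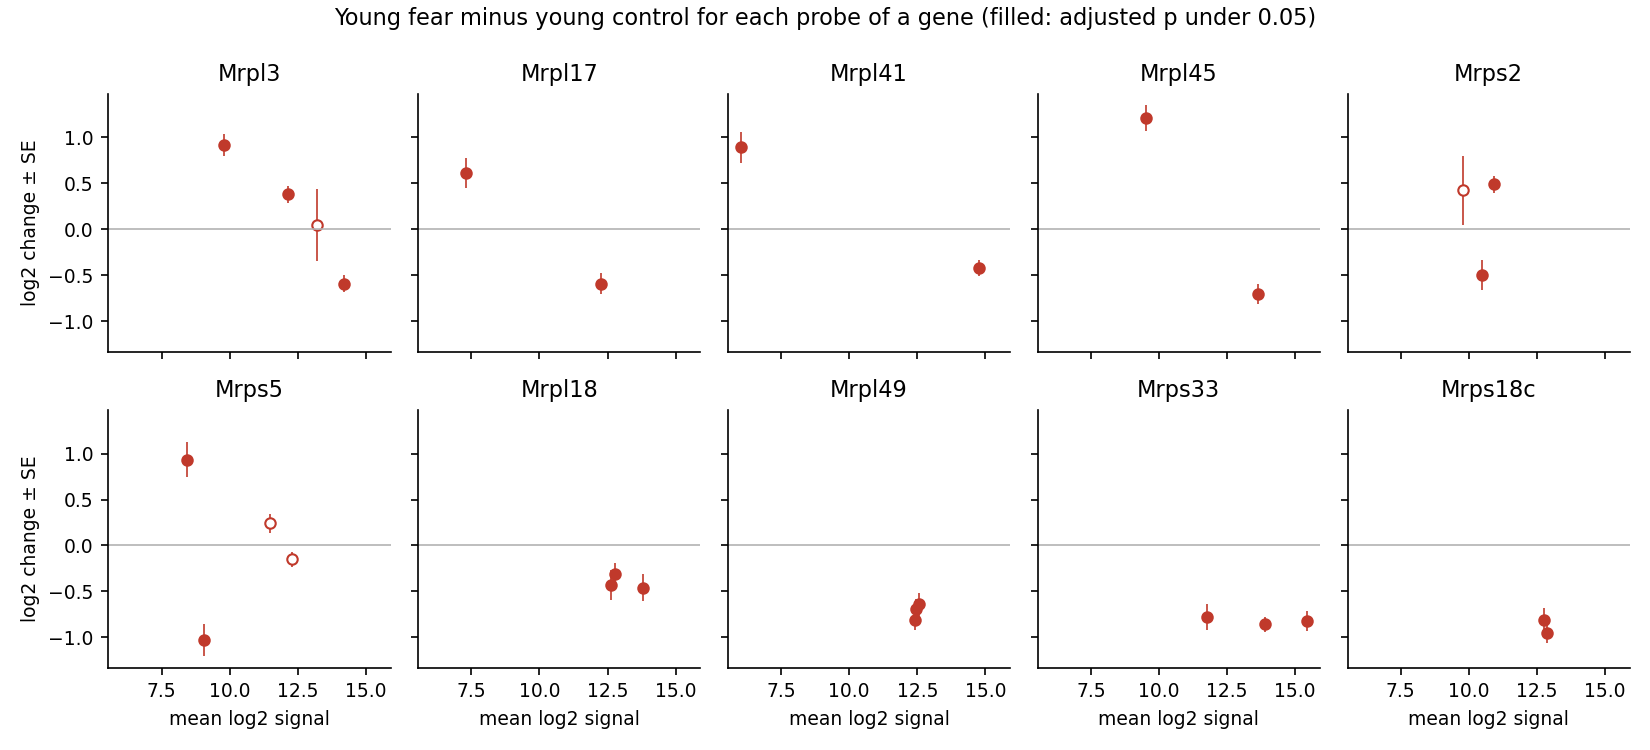
Log2 change in young fear against young control, with its SE, for each probe of 10 genes against the probe's mean log2 signal over 24 arrays. Filled points passed the test. Mrpl3, Mrpl17, Mrpl41, Mrpl45, Mrps2 and Mrps5 have probes called in opposite directions, and all probes of Mrpl18, Mrpl49, Mrps33 and Mrps18c fell.

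Mrpl46 and Mrps11 lie head to head, with starts 42 bases apart, and their common stretch is shown because both fell. It is written along the strand of Mrps11, and capitals mark the bases from the start of Mrpl46 to the base before that of Mrps11.
Mrpl46 and Mrps11, chr7:78783059-78783130, + strand: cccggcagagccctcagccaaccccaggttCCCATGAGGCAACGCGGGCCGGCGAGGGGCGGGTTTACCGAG
Mrps11 measured 11.52, 11.49, 11.69 and 11.13 in young control and 10.66, 10.53, 10.57 and 10.82 in young fear, a fall of 0.81 (SE 0.10, adjusted p = 2.71e-06). A start on the opposite strand within 400 bases was found for 22 of the family, 20 of them with a neighbour that was tested. The members that fell in young fear formed 9 such pairs. The partner fell in 2 of the 9, rose in 4 and did not pass the test in 3, where 22.7% of all genes fell and 17.8% rose. Mrpl49 fell by 0.64 and its neighbour Fau, a cytosolic ribosomal protein gene, by 0.59, while Mrpl14 fell by 0.87 and its neighbour Tmem63b rose by 0.54.

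The same comparison in old mice asked whether conditioning moved the family at 16 months. None of the 75 genes passed the test in old fear against old control (limma, 0 higher and 0 lower), where 0.516% of all genes did. The count was also 0 with dim areas set to missing. At an unadjusted p under 0.05 there were 1 higher and 10 lower. All genes were not counted at that cut, so these numbers have no share to be set against. The smallest adjusted p was that of Mrpl2 (-0.37, adjusted p = 0.0991). The median change was -0.05, with quartiles of -0.14 and 0.05, and it was -0.03 over all genes. Outside the dim areas the 67 remaining genes ranged from -0.37 in Mrpl2 to 0.25 in Mrpl9. The within-slide medians were -0.001, -0.02, -0.08 and -0.11.

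Mrps28 measured 13.55, 13.46, 13.75 and 13.83 in old control and 13.41, 13.73, 13.39 and 13.35 in old fear, which overlapped (-0.18, SE 0.10, adjusted p = 0.394). Mrpl46 measured 11.72, 11.79, 11.94 and 11.97 against 11.77, 11.87, 11.90 and 11.84 (-0.01, SE 0.10, adjusted p = 0.975). Mrps18c measured 12.99, 12.92, 13.25 and 13.03 against 13.11, 13.17, 13.14 and 13.22 (0.11, SE 0.11, adjusted p = 0.641). In all 3 genes the groups overlapped. The largest readings of change in old mice, 1.60 in Mrps17, 1.32 in Mrpl4 and 1.24 in Mrps14, rested on the dim area of old control array 2, where these genes read 6.73, 5.85 and 8.60.

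**Figure D4:**
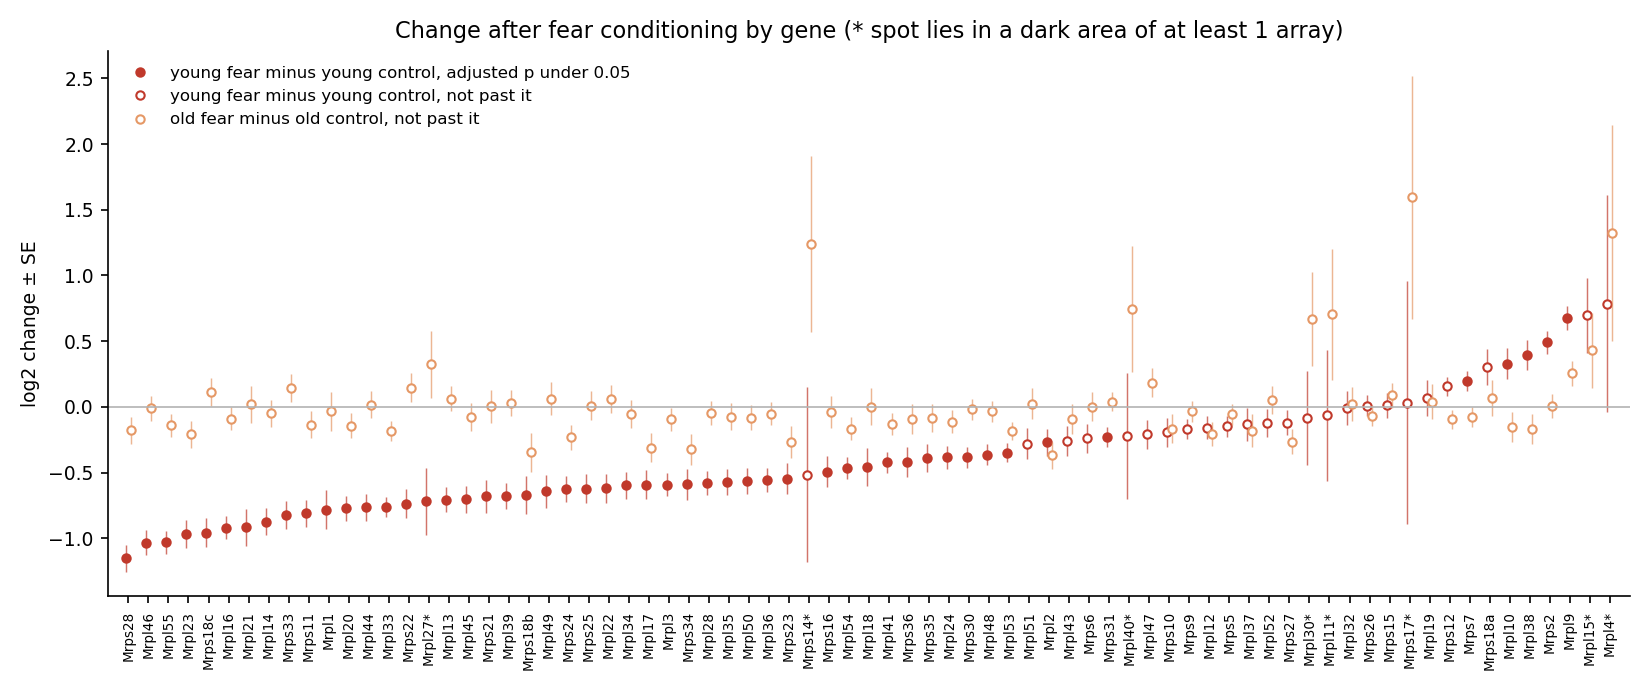
Log2 change with its SE for each of the 75 genes in young fear against young control and in old fear against old control, in order of the young change. Filled points passed the test, and stars mark the 8 genes with a spot in a dim area. In young mice 46 genes fell and 5 rose, and in old mice 0 passed.

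The response of old mice was then set against that of young mice by the interaction of age and conditioning. It was higher for 32 of 75 genes and lower for 4, where 12.7% of all genes were higher and 10.7% lower, and its median was 0.39 over the family and 0.09 over all genes. With dim areas set to missing, 32 were higher and 6 lower. Within the slides the median was 0.48, 0.48, 0.32 and 0.27. The greatest differences were in Mrps18c (1.07, SE 0.15, adjusted p = 4.18e-05), Mrpl27 (1.04), Mrpl46 (1.02, SE 0.13, adjusted p = 1.79e-05), Mrps28 (0.97), Mrps33 (0.97) and Mrpl21 (0.94). The value of Mrpl27 was 0.82 (SE 0.17, adjusted p = 0.00152) with its dim spots missing. Those lower were Mrpl38 (-0.56), Mrpl10 (-0.48), Mrps2 (-0.48) and Mrpl9 (-0.42). Of the genes named in every comparison, Mrps22 (0.89), Mrpl3 (0.50) and Mrps30 (0.37) passed as well, and Mrps16 (0.45, adjusted p = 0.0572), Mrps18b (0.33, adjusted p = 0.289), Mrps36 (0.33, adjusted p = 0.174) and Mrps12 (-0.25, adjusted p = 0.0889) did not. These are readings of the most intense probes. The dimmest probe of Mrpl3, which rose in young fear, read 9.22 to 9.83 in old control and 9.32 to 9.65 in old fear. The probe of Mrps2 that fell in young fear read 10.59 to 11.49 in old control and 10.60 to 10.87 in old fear. Mrpl11 was at 0.77 (adjusted p = 0.496) with all spots and at 0.14 (adjusted p = 0.541) with its dim spots missing, and did not pass either way. Neither did Mrpl12 (-0.05, adjusted p = 0.849) or Mrps18a (-0.24, adjusted p = 0.432). Some of these calls turned with the setting: Mrpl9 (adjusted p up to 0.0815) and Mrps30 (up to 0.0847) lost theirs in 6 settings each, among them array pairs as a random block, and Mrps16 passed in 8 (down to 0.00745). By class, 16 of 30 bacterial-type and 8 of 18 mitochondria-specific large subunit genes were higher, as were 5 of 16 and 3 of 10 small subunit genes.

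Both ages were also compared within each state. In old against young control 0 of 75 genes passed (limma), where 1.01% of all genes did, and 0 passed with dim areas missing. At an unadjusted p under 0.05, a cut at which all genes were not counted, 2 were higher. The median was 0.01, and outside the dim areas the genes ranged from -0.16 in Mrpl49 to 0.29 in Mrps27. In old fear against young fear 47 were higher and 6 lower, where 19.8% and 16.8% of all genes were, with a median of 0.41. With dim areas missing 52 were higher and 8 lower. This comparison shares the young fear arrays with the first one and the old fear arrays with the second, so its counts are not separate evidence.

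The context and shock-context groups address what the chamber and the shock do without their pairing. Against each other, 0 of 75 genes passed (limma), where 0.00382% of all genes did, and 0 passed with dim areas missing. At an unadjusted p under 0.05, a cut at which all genes were not counted, 1 was lower in context. The median was 0.01, and outside the dim areas the differences ran from -0.24 in Mrpl14 to 0.18 in Mrpl19, with a median SE of 0.11. Against young control, 32 genes were lower and 4 higher in young context, where 40.4% and 23.6% of all genes were. In young shock-context 33 were lower and 2 higher, where 37.3% and 22.4% of all genes were. The shares of lower genes were thus near those of all genes, and the family medians (-0.16 and -0.20) were near those of all genes (-0.17 and -0.14). The shares of higher genes, 4 and 2 of 75, lay well below those of all genes. When dim areas were set to missing, 33 were lower and 6 higher in young context, and 34 and 5 in young shock-context. Scan run and group cannot be told apart in both comparisons. The direction of the family also turned with the scaling. With arrays centred on their median, 15 were lower and 16 higher in young context, where 40.5% and 25.9% of all genes were. In young shock-context 12 were lower and 14 higher, where 37.4% and 26.8% of all genes were. More genes were thus still lower than higher over all genes, and the family's shares of lower genes lay below those of all genes. The summed oligodendrocyte markers read 18.73 to 18.82 in young context and 18.64 to 18.79 in young shock-context, above young control at 17.72 to 17.94, and their part in these readings was not tested.

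Single genes took different courses in these groups, which share the young control arrays with the first comparison. Mrps28 read 12.57, 12.68, 12.50 and 12.65 in young context and 12.77, 12.75, 12.65 and 12.94 in young shock-context, near the young fear arrays at 12.31 to 12.57. Mrpl55 and Mrpl14 changed by -1.07 and -1.06 in young context, beside -1.03 and -0.87 in young fear. By contrast Mrps18c read 12.89, 12.91, 13.27 and 13.06 in young context, within the range of young control (-0.005, adjusted p = 0.969). Mrpl3 was at 0.12 (adjusted p = 0.248) in young context, Mrpl44 at 0.17 (adjusted p = 0.169), and Mrps22 rose by 0.27 (adjusted p = 0.0375). Mrpl9 rose by 0.94 in young context, where it read 11.16 to 11.28. On its most intense probe Mrpl47 read 11.81 to 12 in young context against 10.48 to 10.99 in young control. That is a rise of 1.11 (SE 0.11, adjusted p = 3.88e-08), and this probe was at -0.21 in young fear without passing the test. The other probe of Mrpl47 went the other way, at 9.85 to 10.08 in young context against 10.37 to 10.99 in young control. It fell in young fear (-0.36, adjusted p = 0.0216 in limma). Mrps12 fell by 0.49 (adjusted p = 8.12e-06) in young context, with all 4 arrays (13.54 to 13.63) below those of young control.

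Other genes of the mitochondrial translation pathway were read from lists that do not overlap the family. Over all genes 22.7% fell and 17.8% rose in young fear. Of 7 mitochondrial ribosome subunits with other names, 4 fell in young fear and 0 rose: Mrp63 (-0.65), Chchd1 (-0.67), Aurkaip1 (-0.47) and Gadd45gip1 (-0.50). Of 11 translation factors 5 fell, among them Guf1 (-0.92), a GTPase that moves ribosomes backward, and Mtfmt (-0.47), which formylates the initiator methionyl tRNA. In this list 1 gene rose, the elongation factor gene Gfm1 (0.49). Of 16 assembly and ribosomal RNA modification genes 6 fell, among them Nsun4 (-0.46) and Mrm1 (-0.72), and 1 rose, the GTPase gene Gtpbp10 (1.92).

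The tRNA ligase and citrate cycle lists lay near the shares of all genes, of which 22.7% fell and 17.8% rose. Of 20 mitochondrial tRNA ligases 5 fell (25%), with Lars2 at -3.10 (SE 0.41) and Fars2 at -0.81, and 3 rose (15%), with Nars2 at 0.85. Of 12 genes of mitochondrial DNA maintenance and transcription 5 fell, such as Ssbp1 (-0.61), and 3 rose, such as Supv3l1 (0.80). Of 25 protein import genes 10 fell, with Tomm7 (-1.47) and Timm10 (-1.22), and 2 rose. In the citrate cycle 4 of 17 fell and 4 rose (23.5% each), with Ogdh at 1.13 and Sdhb at -0.65. The medians of the tRNA ligase, DNA maintenance and citrate cycle lists, -0.03, 0.02 and -0.05, were above that of all genes (-0.15).

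Other families with many members were lower in the same arrays, where 22.7% of all genes fell and 17.8% rose in young fear. Of 68 nuclear oxidative phosphorylation subunits 46 fell and 0 rose in young fear, with a median of -0.46, led by Ndufa1 (-1.39), Cox7a2 (-1.41) and Ndufb3 (-1.41). Among genes of the cytosolic ribosome, 52 of 80 fell and 4 rose (median -0.39). In old fear 0 genes passed in each of these lists (limma), where 0.516% of all genes did. In the same arrays 5 of 7 neuron markers and 6 of 8 oligodendrocyte markers rose in young fear, and 0 of either list did in old fear. The log2 summed signal of the neuron markers was 19.21 to 19.27 in young fear and 18.63 to 18.76 in young control, and that of the oligodendrocyte markers 18.47 to 18.73 against 17.72 to 17.94. None of these markers was at background in any group, and their part in the falls of ribosomal protein genes was not tested.

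**Figure D5:**
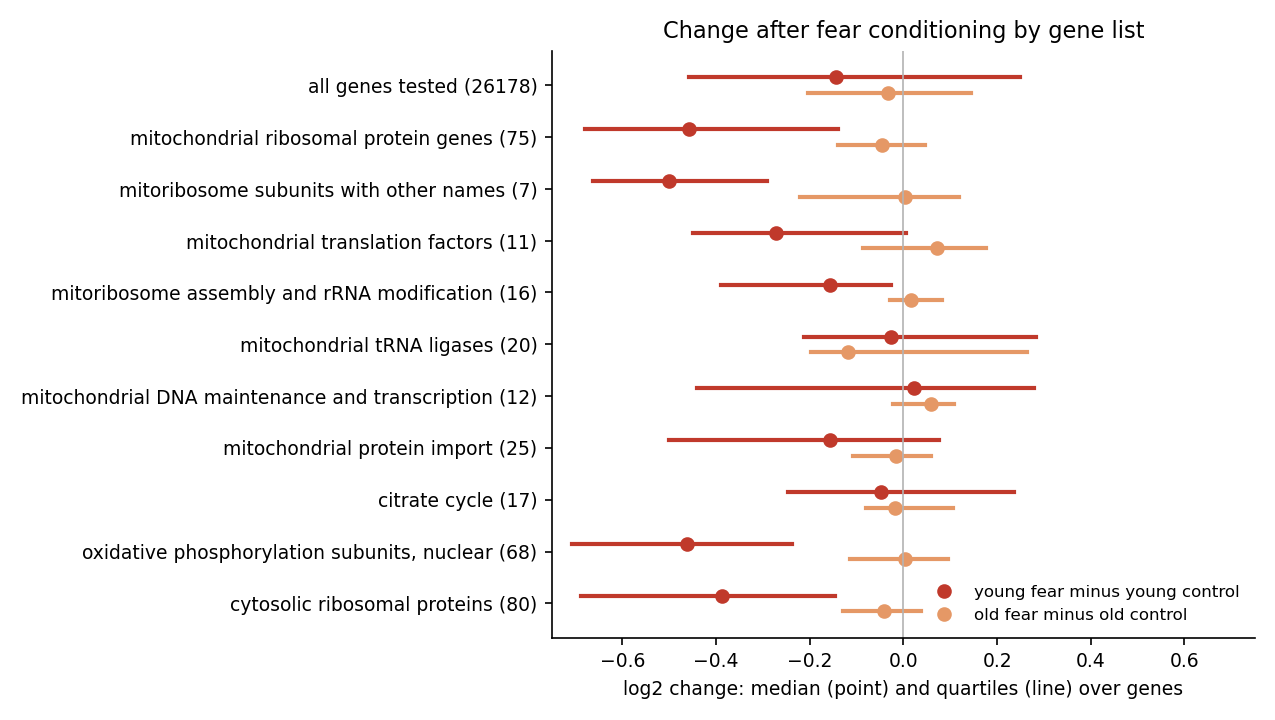
Median (point) and quartiles (line) of the log2 change over the genes of each list, in young fear against young control and in old fear against old control, with the number of genes tested in parentheses. In young mice the mitochondrial ribosomal protein genes (-0.46), the oxidative phosphorylation subunits (-0.46) and the cytosolic ribosomal proteins (-0.39) lie below all genes (-0.15).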

How the data were processed

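The authors scanned with Agilent's Feature Extraction software, version 9.5.3.1 per the file headers, and the intensity used was its processed signal, background subtracted and not scaled between arrays. Per the labels, 600 ng of RNA was labelled with Cy3 for each array. The authors' deposited table, taken to be log2 from its values and not from a label, served as an alternative. Processed signals were taken to log2 and quantile normalized over the 24 arrays, outlier spots were set to missing, and a probe was kept where at least 4 arrays had it well above background. The most intense probe stood for each gene, named by the later annotation (mm9). Group means of the 24 arrays were fitted in limma 3.58.1 (R 4.3.3) with 18 residual degrees of freedom, with two-sided moderated tests (lmFit, eBayes). P-values were adjusted by Benjamini-Hochberg over 26178 genes and called under 0.05. SEs are those of the fit. A level is comparable between arrays for 1 probe, not between probes. The number of arrays limits the precision. In simulated data with independent noise and changes added to few genes, the fit made no false call but missed many of the added changes, small ones above all. In young fear against young control 40.5% of all genes passed, so the simulated rates of false calls and misses do not carry over to that comparison. A count of 0 does not show that genes did not change.

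The genes and lists were chosen with earlier results of these data known, so no p-value is given for a list. Genes named are, per comparison, up to 8 of the largest rises and of the largest falls past the threshold, a panel (Mrpl3, Mrpl11, Mrpl12, Mrps12, Mrps16, Mrps22, Mrps30, Mrps18a, Mrps18b, Mrps18c, Mrps36), genes whose probes disagree, and up to 4 genes of smallest adjusted p per list. Mrps33, Mrps11, Mrpl44, Mrpl49, head-to-head neighbours, genes at the end of a range and those in dim areas were named after their values were seen. Replicate numbers are slides in the control and fear groups. Of 24 pairs with one number, 13 had a correlation of deviations over 0.1 (-0.40 to 0.66). Arrays of different groups with different numbers were not compared, so these values do not decide whether a number pairs arrays. The main fit left slide out, and slide as a random block had a consensus correlation of 0.122. Alternatives were 75th percentile and median scaling, quantile normalization over 16 arrays, normexp with an offset of 50, the deposited values, other filters, every probe, outlier spots kept, trend and robust eBayes, only the arrays compared, blocks, and each array left out.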

Additional observations from a re-analysis of the deposited data

Results flagged for a closer look

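The response to conditioning differed between ages for 36 of the 75 genes by the interaction term in limma, where 23.4% of all genes differed. Of the genes named, it was higher in old mice for Mrps18c (1.07), Mrpl27 (1.04), Mrpl46 (1.02), Mrps28 (0.97), Mrps33 (0.97), Mrpl21 (0.94), Mrpl55 (0.89), Mrps22 (0.89), Mrpl3 (0.50) and Mrps30 (0.37). It was lower for Mrpl38 (-0.56), Mrpl10 (-0.48), Mrps2 (-0.48) and Mrpl9 (-0.42). Each value is that of the gene's most intense probe, and other probes of Mrpl3 and Mrps2 moved the other way in young fear. The calls of Mrpl27, Mrpl10, Mrpl9 and Mrps30 were lost in 15, 14, 6 and 6 of the alternative settings.

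Among 186 groups of 4 arrays, 23 held an array past Dixon's critical value. The measure was its gap to the nearest of the others, as a share of the group's range. Chance gives such an array in about 1 group in 20. All genes with a spot in a dim area were put among those tested, so the 23 cannot be set against this rate. In old control array 2, Mrpl4 (5.85), Mrps17 (6.73), Mrps14 (8.60), Mrpl40 (9.90), Mrpl30 (10.66), Mrpl11 (11.13) and Mrpl27 (12.72) were low, all in the dim centre of that array, and in young control array 3 Mrpl11 (13.52) and Mrpl40 (11.89) were low in its dim area. Outside these areas, high readings were Mrps30 in old control array 2 (12.24) and old fear array 2 (12.29), Mrps28 in old fear array 2 (13.73), Mrpl14 in young control array 3 (14.78), Mrps22 in young fear array 1 (11.66), Mrps7 in young fear array 4 (12.49), Mrps2 in young context array 3 (10.95) and Mrpl12 in young shock-context array 1 (13.95). Low readings were Mrpl12 in young control array 4 (14.01), Mrpl23 in young fear array 4 (13.79), Mrps2 in old control array 1 (10.70), Mrps36 in young context array 2 (12.87), and Mrps12 (13.46) and Mrps30 (11.92) in young shock-context array 3.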

How the results depend on the processing

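Counts of genes of the family past the threshold stayed within 1.5 times under the alternatives run, except where every probe was tested (79 of 123 in young fear, 64 in young context and 62 in young shock-context against young control). Every probe with dim areas missing, chosen after seeing the data, gave 84, 67 and 66, and 82 in old against young fear. With 75th percentile scaling the family median was -0.63 in young fear against young control, 0.55 in the response of old against young mice, 0.58 in old against young fear, -0.31 in young context and -0.31 in young shock-context against young control, and -0.041 in context against shock-context. The median of all genes in young fear then moved to -0.35, from -0.15. With median scaling the same medians were 0.47 for the response, 0.49 for old against young fear, -0.069 for context against shock-context, and turned to 0.038 in young context and 0.068 in young shock-context, with Mrps30 at 0.131 in the latter. With every probe they were -0.36 in young fear, 0.30 for the response, 0.31 for old against young fear, -0.038 in young context and -0.079 in young shock-context. With dim areas missing as well they were -0.364, 0.28, 0.323, -0.038 and -0.079. The young fear median was -0.40 with the deposited values and -0.40 with normexp, and with dim areas missing the response median was 0.33. The cause of these shifts was not tested.

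With each array left out in turn, the counts were 45 to 51 in young fear, 31 to 42 for the response, 48 to 52 in old against young fear, 34 to 38 in young context and 28 to 37 in young shock-context, and the medians were -0.49 to -0.41, 0.37 to 0.44, 0.39 to 0.42, -0.21 to -0.14 and -0.22 to -0.16. Counts were 0 throughout in the other 3 comparisons, with medians of -0.01 to 0.03 in old against young control, -0.05 to -0.03 in old fear and -0.02 to 0.02 in context against shock-context. The replicate number as block gave 50 in young fear, 34 for the response and 53 in old against young fear. Arrays 1 and 2, and 3 and 4, of the control and fear groups as random blocks gave 45, 29 and 47 (consensus correlation 0.312). Chosen after seeing the data, leaving out old control array 2 and young control array 3 together gave counts of 59, 44 and 61. The interaction of Mrpl27 lost its call in 15 settings and that of Mrpl10 in 14, as did the rise of Mrps7 in young fear in 14.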
